A study of Mus musculus with 27 samples.

Results

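Half-methylated CpG-dense windows are 1 kb stretches of the mouse autosomes in which many CpG positions were measured and the mean methylated fraction in control microglia lay in the middle of the scale. The genome was divided at multiples of 1000 bases on chromosomes 1 to 19, and a window counted as CpG-dense when at least 20 CpG positions in it were listed in both bisulfite libraries. Of 71662 such windows, 4418 had a mean control fraction from 0.40 to 0.60 and make up the set. The control level of these windows is therefore fixed by the way they were chosen, and only the values of the ND1 library and the RNA libraries, which the choice did not use, are compared below. The windows nearest the limits were chr11:95598000-95598999 at 0.400058 and chr15:102095000-102095999 at 0.599926 inside, and chr5:92682000-92682999 at 0.39998 and chr4:46886000-46886999 at 0.600001 outside.

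Primary microglia, the resident macrophages of the brain, were prepared from the cortex of wild-type C57BL/6 mice at postnatal day 1. Treated cells were infected with 2 lentiviruses, which carried ND1 and the doxycycline-dependent transactivator M2rtTA. Neurobasal medium with B27 and the neurotrophic factors BDNF, GDNF and NT3 followed, with a single dose of doxycycline. What the letters ND1 stand for and the medium of the control cells are not stated in the labels, which title the treated bisulfite library iN. DNA methylation was measured by post-bisulfite adaptor tagging, a whole-genome bisulfite method, in a pair of libraries without a stated day, 1 from control and 1 from ND1-transduced cells. The 15 RNA libraries comprise 3 per group: control at day 2, control at day 7, ND1 at day 2, ND1 at day 7, and cortical neurons of the same strain, age and genotype. All groups thus share the wild-type genotype, and the part of ND1 cannot be told apart from that of virus, doxycycline and medium.

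In mammals most CpG positions are methylated on nearly all DNA molecules, while CpG islands, the CpG-rich stretches at many gene starts, are free of methylation. A mean in the middle can arise when 1 parental copy is methylated and the other is not, as at the imprinting control regions that silence a gene on the maternal or the paternal chromosome, when cells differ from each other, or when a window spans the shore between an unmethylated island and methylated surroundings. The fraction read at a single CpG of a bulk library does not separate the first 2 cases, and bisulfite treatment does not separate methylcytosine from hydroxymethylcytosine.

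The bases that precede 5 gene starts inside the windows are shown because the largest fall (Gnas), the largest RNA rise (Nnat), 2 further imprinted starts (Mest and Meg3) and the largest rise at a gene start (Prkcz) lie there. Each is 250 bases from RefSeq (GRCm38.p6, the coordinates of mm10), written 5′ to 3′ on the strand of the gene and ending 1 base before its start, with every CpG in capitals.
Gnas (chr2:174327499-174327748, plus strand): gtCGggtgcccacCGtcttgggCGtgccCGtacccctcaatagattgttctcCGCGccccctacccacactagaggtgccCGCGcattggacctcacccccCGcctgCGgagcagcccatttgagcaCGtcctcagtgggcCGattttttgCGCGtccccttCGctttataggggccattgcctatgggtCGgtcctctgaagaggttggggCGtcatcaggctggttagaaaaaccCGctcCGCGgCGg
Nnat (chr2:157559828-157560077, plus strand): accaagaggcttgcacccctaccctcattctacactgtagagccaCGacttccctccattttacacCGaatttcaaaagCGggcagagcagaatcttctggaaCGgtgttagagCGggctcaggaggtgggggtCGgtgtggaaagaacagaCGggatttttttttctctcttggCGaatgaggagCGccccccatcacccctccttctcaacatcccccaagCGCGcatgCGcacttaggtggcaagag
Mest (chr6:30737800-30738049, plus strand): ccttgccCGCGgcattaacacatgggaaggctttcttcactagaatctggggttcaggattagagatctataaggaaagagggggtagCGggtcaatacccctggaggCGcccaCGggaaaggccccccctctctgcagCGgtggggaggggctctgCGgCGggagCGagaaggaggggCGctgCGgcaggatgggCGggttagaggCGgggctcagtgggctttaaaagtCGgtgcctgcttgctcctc
Meg3 (chr12:109540746-109540995, plus strand): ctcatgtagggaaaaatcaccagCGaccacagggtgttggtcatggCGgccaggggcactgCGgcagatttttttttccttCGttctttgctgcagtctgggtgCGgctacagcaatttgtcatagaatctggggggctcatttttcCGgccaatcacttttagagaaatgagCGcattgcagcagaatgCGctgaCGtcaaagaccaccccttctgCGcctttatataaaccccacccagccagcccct
Prkcz (chr4:155344750-155344999, minus strand): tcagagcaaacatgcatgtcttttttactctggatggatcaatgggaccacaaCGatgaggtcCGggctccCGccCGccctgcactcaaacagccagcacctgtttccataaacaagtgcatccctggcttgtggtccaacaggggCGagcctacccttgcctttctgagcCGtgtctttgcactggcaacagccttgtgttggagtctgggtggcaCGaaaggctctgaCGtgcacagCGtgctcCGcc

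In the Gnas sequence all 21 CpGs were measured, and single positions lay between 0.457 and 0.586 in control and between 0.290 and 0.556 in ND1. The mean over these positions was 0.535 in control and 0.422 in ND1, and 19 positions were lower in ND1 and 2 higher. The 14 CpGs of the Mest sequence gave a mean of 0.494 in control and 0.481 in ND1, with 7 positions lower and 7 higher. Single Mest positions lay between 0.375 and 0.560 in control, so at both starts each CpG was middling by itself. The 11 measured CpGs of the Nnat sequence averaged 0.769 in control and 0.702 in ND1, and the 10 of the Meg3 sequence 0.527 and 0.469, with 8 positions lower in ND1 at each of these starts. The Prkcz sequence was more uneven, with positions from 0.0571 to 0.778 in control; its mean was 0.345 in control and 0.453 in ND1, and 9 of its 10 positions were higher in ND1.

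The windows were separated by how the fractions were arranged along them. For every window the split with the largest difference between the mean to its left and the mean to its right was found, with at least 6 positions on either side; this difference is called the contrast. Windows with a contrast under 0.30 in control and at least 60% of positions between 0.20 and 0.80 were called uniform, windows with a contrast of at least 0.50 were called step windows, and the rest intermediate. There were 1315 uniform windows (29.8%), 1597 intermediate windows and 1506 step windows. The median uniform window had 23 positions, a contrast of 0.204 and 81.0% of positions in the middle range, and the median step window had a low side at 0.170 and a high side at 0.826. These control values describe the sorting.

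The ND1 library was arranged in the same way. By its own values, 1117 of the 1315 uniform windows (84.9%) were again uniform and none was a step window, and 1355 of the 1506 step windows were again step windows. The window mean stayed between 0.40 and 0.60 in 1123 uniform windows and in 1344 step windows. In step windows the low side had a median of 0.183 and the high side of 0.820 in ND1, and the high side was the same as in control in 1505 of 1506. The position of the step, taken as the midpoint of the best split, was the same split in 1055 step windows and lay within 100 bases in 1308 (86.9%).

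Differences between the libraries were small in all classes. The median of ND1 minus control was 0.00439 in uniform windows, 0.00181 in intermediate windows and 0.00275 in step windows, against 0.00101 over all CpG-dense windows. The spread between windows was wider where positions were middling: the SD of the difference was 0.0354 over uniform and 0.0259 over step windows, and 0.0203 over all CpG-dense windows. No member differed by 0.20 or more in either direction, and neither did any of the 71662 CpG-dense windows (0% lower and 0% higher). At 0.10, a limit set after the values were seen, 6 uniform windows were lower and 6 were higher (0.456% each). Of step windows 0 were lower and 1 was higher. Of all CpG-dense windows 0.0307% were lower and 0.0419% higher, but 20404 of these were under 0.10 in control and 26077 over 0.80. In CpG-dense windows with a control mean of 0.25 to 0.40 the shares were 0.112% each way (SD of the difference 0.0264). With a control mean of 0.60 to 0.75 they were 0.161% lower and 0.193% higher (SD 0.0299). CpG-poor windows with the same control band, those of 5 to 19 positions, reached further: of 91676, 11 (0.0120%) were lower and 154 (0.168%) higher by 0.20, with a median difference of 0.0157. These windows held a median of 7 positions, against 23 in the members. With 1 library a group there is no replicate error, and no test of any of these differences was possible.

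**Figure D1:**
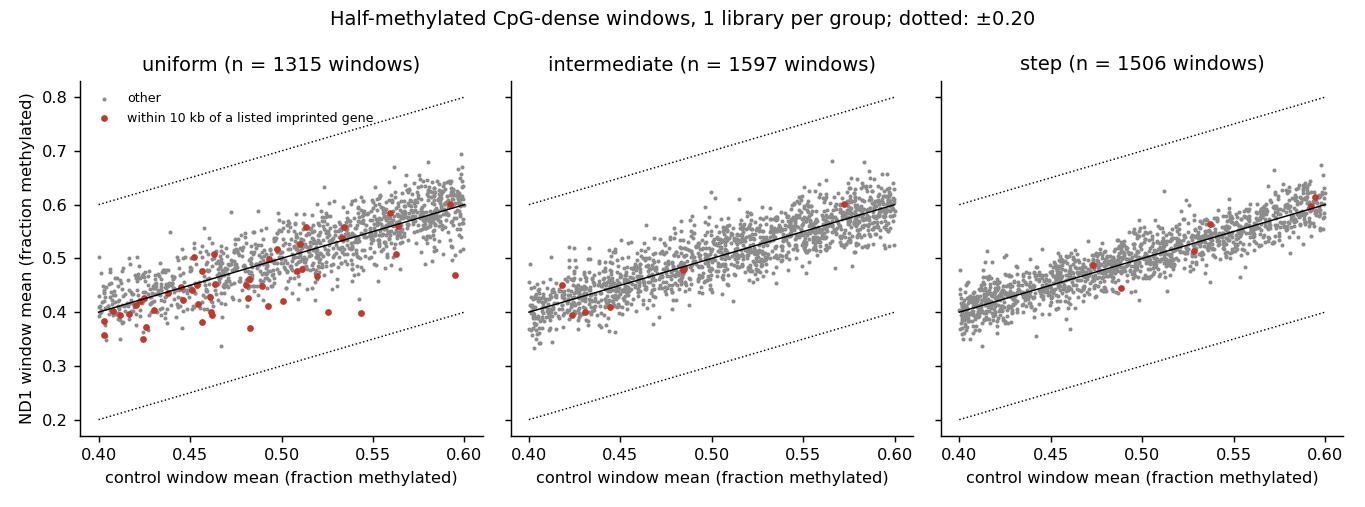
Mean methylated fraction of each half-methylated CpG-dense window in the control library (horizontal axis) and the ND1 library (vertical axis), 1 point per window and 1 panel per class. The solid line marks equal values and the dotted lines a difference of 0.20, which no window reached; red points are windows within 10 kb of a gene of the imprinted list.

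Part of the window difference repeated within a window. Across uniform windows, the difference over odd-numbered positions and the difference over even-numbered positions correlated at r = 0.411 (1315 windows, which share both libraries; positions close together can share reads), against 0.253 across step windows. When odd-numbered positions chose and sorted the windows and even-numbered positions measured them, 989 windows were uniform, their median was 0.511 in both libraries, and none differed by 0.20. Choosing by the ND1 library gave 1284 uniform windows, of which 952 were uniform by control too (72.4% of the control choice and 74.1% of the ND1 choice).

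By the median, the neighbours of uniform windows were more methylated than the windows themselves. The choice fixed the control level of the windows but not that of their neighbours. The mean over all shared autosomal positions was 0.701 in control and 0.704 in ND1. The windows 1 kb to the left and right of uniform windows had median control fractions of 0.716 and 0.711. Those 5 kb away had 0.759 and 0.762. The ND1 medians at these distances were 0.716, 0.712, 0.762 and 0.762. The neighbours 1 kb to the left and right of step windows (0.754 and 0.745 in control) and of intermediate windows (0.741 and 0.736) were close to these. Uniform windows were not turned. Around step windows turned so that the low side faces left, the neighbour on the low side had a median of 0.484 and the neighbour on the high side of 0.861 in control, with 0.488 and 0.864 in ND1. On the low side 38.1% of the neighbours were under 0.30 in control and on the high side 1.30%.

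**Figure D2:**
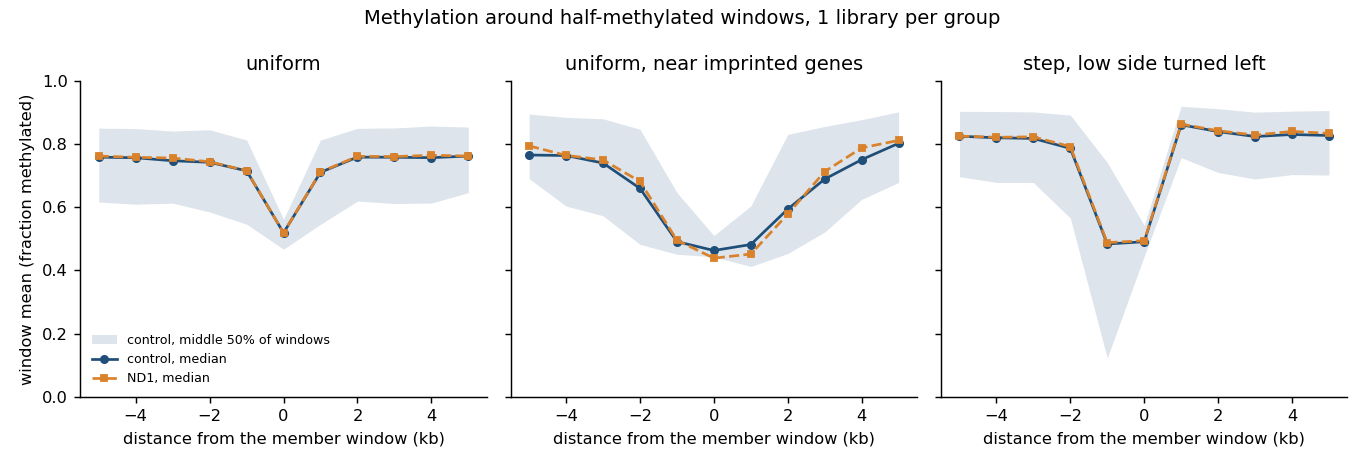
Median window mean by distance from the member window for control (solid) and ND1 (dashed), with the middle 50% of control windows shaded. Uniform windows dip within 1 kb, uniform windows near imprinted genes have a broader trough, and step windows fall on 1 side; the control and ND1 lines lie closer together in the uniform and step panels than in the imprinted one.

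Few of the windows lay at a gene start. Of the 1240 uniform windows outside chromosome 18, for which the promoter table lists starts, 88 (7.10%) held a listed start, as did 103 of 1460 step windows (7.05%), against 17.8% of all CpG-dense windows and 46.4% of those with a control mean under 0.10. Within 2 kb of a listed start lay 18.4% of uniform and 29.6% of step windows. Most lay inside genes: 60.9% of uniform and 61.1% of step windows overlapped the body of a protein-coding gene, against 75% of CpG-dense windows. Exons, introns and UTRs were not separated here.

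The uniform windows with the most positions were inside genes. The window in Shroom3, which encodes an actin-binding protein of apical constriction, had 115 positions (chr5:92942000-92942999) and means of 0.557 in control and 0.528 in ND1. Agap3, an Arf GTPase-activating protein gene, had 113 positions at 0.595 and 0.618. Cacna1a, the pore subunit gene of a neuronal calcium channel, had 111 positions at 0.430 and 0.446. Basp1, a gene of a membrane protein abundant in axons, had 103 positions at 0.431 and 0.452. Crb2, a cell polarity gene, had 97 positions at 0.436 and 0.428. In these 5 windows the libraries differed by -0.0286 to 0.0232.

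Listed promoters in uniform windows were poorer in CpG than those of unmethylated islands. The ratio of observed to expected CpG over 300 bases had a median of 0.423 in 102 promoters of uniform windows, 0.814 in promoters of CpG-dense windows under 0.10 and 0.388 in all 31365 promoters; for the 14 promoters of imprinted genes among the 102 it was 0.604. The letters TGCCGC, which the imprint-protecting zinc finger protein ZFP57 recognises when methylated, were searched on both strands. Some promoters of a gene overlap, and counted by gene the letters were present for 4 of 11 imprinted genes (36.4%) and 11 of 80 other genes (13.8%) with a start in a uniform window. Counted by promoter they were present in 16.7% of the 102, in 20.4% of promoters in CpG-dense windows and in 11.6% of all promoters. In promoters of CpG-dense windows under 0.10 the share was 22.8%. The letters hold a CpG, and promoters in uniform windows had a median of 17 CpGs for imprinted genes and 9 for other genes. The part of CpG number in these shares was not tested.

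Imprinted genes, which are expressed from the maternal or the paternal copy alone, lay beside uniform windows more often than genes at large. Of 67 listed imprinted genes in the annotation, 30 (44.8%) had a uniform window within 10 kb, against 4.62% of all genes with a listed start. Of 54 imprinted genes with a listed start 11 (20.4%) had it inside a uniform window, against 0.353%. Germline genes had 3 of 41 starts in uniform windows, those of Piwil1, a piRNA-binding protein gene, of Nobox, an oocyte homeobox gene, and of Meioc, a meiosis gene. Developmental transcription factor genes had 0 of 99 starts and myeloid genes 0 of 28, and neuronal genes had 1 of 32, that of Celf5. A uniform window within 10 kb was found for 9 of 50 neuronal genes (18%), 3 of 38 myeloid (7.89%), 11 of 154 developmental (7.14%) and 3 of 48 germline genes (6.25%). Clustered protocadherin genes, which encode neuronal cell surface proteins and are switched on from promoters chosen at random, lie on chromosome 18, for which starts were not listed. Of the 46 counted here, which leave out the Pcdhga genes, 43 had a uniform window within 10 kb, and 1 window can count for several of them. Inside their gene bodies were 54 members, 40 of them uniform, of the 75 uniform windows of chromosome 18. Those 40 had a median of 0.525 in control and 0.519 in ND1, with 19 windows lower. Chromosome 18 had the highest uniform share of its CpG-dense windows (3.53%) and chromosome 1 the lowest (1.04%).

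In control, uniform windows at imprinted loci were more even than the others. Joined at distances up to 50 kb, the 48 uniform windows near the listed genes formed 20 loci. At least 90% of positions were in the middle range in 40 of these 48 windows (83.3%) and in 242 of the other 1267, by the same control values that sorted them. By the ND1 values this held for 36 of the 48, and the other 1267 were not counted in ND1. Runs of 3 or more adjacent uniform windows numbered 5 in the genome, and 4 of them were at Gnas, Mest, Peg3 with Usp29, and Meg3; the fifth was at Kiss1r, the kisspeptin receptor gene (chr10:79918000-79920999, 91 positions, 0.436 in control and 0.426 in ND1). The trough was broad: the neighbours 1 kb away had medians of 0.491 and 0.482 in control, and those 5 kb away 0.766 and 0.803.

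The uniform windows near imprinted genes leaned lower in ND1. Of the 48, 35 were lower and 13 higher, with a median difference of -0.0203, while 43.3% of the other 1267 uniform windows were lower, with a median of 0.00531. The former windows held more positions (median 36.5, against 23), and uniform windows of at least 40 positions leaned lower as well: 18 of 22 near imprinted genes (median -0.0330) and 51 of the other 89 (57.3%, median -0.00492). By the ND1 values 37 of the 48 stayed in the band from 0.40 to 0.60, 10 fell below it and 1 rose above it, and 44 were again uniform. The lean depended in size on which values chose the windows. Chosen on odd-numbered and measured on even-numbered positions, 33 of 41 were lower with a median of -0.0340, against 466 of the other 948 with a median of 0.000686. Chosen in the ND1 library, 26 of 40 were lower with a median of -0.00673, against 629 of the other 1244 with a median of -0.000530. Gnas supplied 10 of the 48 windows, and without it 25 of 38 were lower with a median of -0.0159. Without Gnas, the choice on odd-numbered positions gave 23 of 31 lower (median -0.0307), and the choice in the ND1 library 21 of 35 (median -0.00340).

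By locus, 16 of 20 were lower in ND1. Gnas, which encodes the stimulatory G protein subunit and has several alternative starts with different imprints, had 517 positions in 10 windows, from chr2:174283000 to 174327999, and its mean was 0.472 in control and 0.407 in ND1, with all 10 windows lower. Snrpn with Snurf, in the Prader-Willi region (chr7:60004000-60004999), was at 0.493 and 0.411 over 35 positions. Grb10, a growth-restraining adaptor gene (chr11:12025000-12025999), was at 0.462 and 0.394 over 56 positions. These 3 loci had the largest differences. Blcap with Nnat was at 0.537 and 0.486, Slc38a4, an amino acid transporter gene, at 0.482 and 0.427, Peg10 with Sgce at 0.451 and 0.415, Meg3, a long noncoding RNA gene, at 0.464 and 0.429, Peg13 with Trappc9 at 0.443 and 0.410, and H13 with Mcts2 at 0.469 and 0.440.

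At the other 7 loci that were lower the difference was at most 0.0148 in size. Peg3 with Usp29 was at 0.479 in control and 0.464 in ND1, the interval upstream of H19 at 0.422 and 0.408, Mest with Copg2 at 0.445 and 0.431, Airn with Igf2r at 0.509 and 0.498, Rian with Rtl1 at 0.503 and 0.494, Commd1 with Zrsr1 at 0.436 and 0.430, and Inpp5f at 0.438 and 0.436. Higher in ND1 were Kcnq1 (0.534 and 0.558 over 21 positions), Cdh15 (0.546 and 0.556), Zdbf2 (0.439 and 0.448) and Dlk1 (0.592 and 0.601). The 20 loci were thus within 0.0820 of their control value in the ND1 library.

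**Figure D3:**
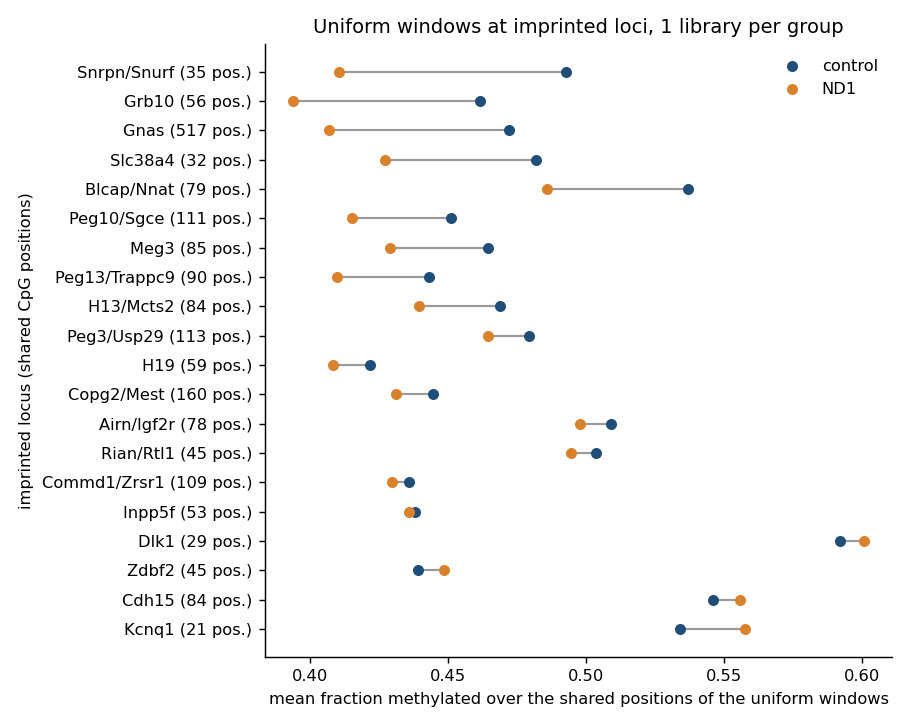
Mean methylated fraction over the shared CpG positions of the uniform windows at each imprinted locus, in control (blue) and ND1 (orange), ordered by their difference, with the number of positions in brackets. ND1 lies to the left of control at 16 of 20 loci, and the distance is largest at Snrpn/Snurf, Grb10 and Gnas.

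The 10 uniform windows with the largest falls were led by imprinted loci. The Gnas window that holds the printed start (chr2:174327000-174327999) had 76 positions with means of 0.543 in control and 0.398 in ND1; 67 positions were lower and 9 higher, and odd- and even-numbered positions gave -0.150 and -0.142. A window between Dlk1 and Meg3 inside Gm34081 (chr12:109528000-109528999), outside the 10 kb reach of the listed genes, had 37 positions at 0.467 and 0.336. The second Nnat window (chr2:157561000-157561999), inside Blcap and Nnat, had 34 positions at 0.595 and 0.469. Further Gnas windows at chr2:174287000-174287999 and chr2:174295000-174295999 were at 0.525 and 0.401, and at 0.483 and 0.371. The other 5 windows lay in Arhgap24 (0.543 and 0.424), Car15, a carbonic anhydrase gene (0.593 and 0.497), Pde4c, a cAMP phosphodiesterase gene (0.518 and 0.422), Sema5b, a semaphorin gene (0.553 and 0.459), and Gm14176 (0.578 and 0.490).

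The 10 largest rises held no window near a listed imprinted gene, and only 48 of all 1315 uniform windows were near one. The largest was in Actr3b, which encodes an actin-related protein, with 20 positions at 0.472 in control and 0.586 in ND1 (chr5:25769000-25769999). The window with the Prkcz start (chr4:155344000-155344999) had 22 positions at 0.40 and 0.502, with 17 higher and 5 lower. Its control value lies at the lower limit of the band that chose the windows. The other windows with an overlapping gene were in Gm34476 (0.580 and 0.679), at the start of Gm32865 (0.598 and 0.694) and in Mrgprf, an orphan receptor gene (0.568 and 0.655); 5 windows overlapped no annotated gene and rose by 0.0987 to 0.110.

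Of the 5 step windows with the sharpest borders in control, 4 had the step at the same split in ND1. At the start of Nop10, which encodes a protein of the RNA pseudouridylation complex (chr2:112261000-112261999, 24 positions), the low side was at 0.011 and the high side at 0.947 in control, and at 0.008 and 0.943 in ND1, with the step at the same split. In Card19, a caspase recruitment domain gene, the sides were at 0.025 and 0.941 in control and at 0.044 and 0.963 in ND1. In Fbxl6, an F-box protein gene, they were at 0.021 and 0.931, and at 0.015 and 0.876, and the step lay 173 bases away in ND1. The other 2 of the 5 sharpest windows overlapped no gene (chr3:69599000-69599999 and chr17:87949000-87949999), with contrasts of 0.915 and 0.909 in control and 0.879 and 0.919 in ND1.

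The step windows with the largest falls and rises stayed within 0.115. Falls were largest at chr3:154570000-154570999, outside genes (0.460 in control and 0.368 in ND1), in Pdpn, the podoplanin gene (0.553 and 0.465), at chr12:108292000-108292999, outside genes (0.442 and 0.355), in Bcas1, a gene of the oligodendrocyte lineage (0.537 and 0.455), and at chr1:151025000-151025999, outside genes (0.412 and 0.337). Rises were largest in Fbxl2, an F-box protein gene (0.512 and 0.626), and in Ppcdc, an enzyme gene of coenzyme A synthesis (0.415 and 0.515). In Fbxl2 the low side moved from 0.224 to 0.446 and the high side from 0.773 to 0.790, so the low side carried the difference. Rises followed at chr2:104572000-104572999 (0.572 and 0.664) and chr2:39806000-39806999 (0.524 and 0.608), outside genes, and in Csdc2, a cold-shock domain gene (0.426 and 0.506).

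RNA libraries were compared to learn what transcripts did at these starts, with limma on log2(FPKM + 1) over 13602 genes; a gene was called at an adjusted p under 0.05 and a log2 change of at least 1. The day of the bisulfite libraries is not given, so a day of RNA cannot be matched to them, and in bulk RNA fewer cells of a type and less RNA per cell cannot be told apart. The summed level of 8 microglia markers was 3671 to 6250 FPKM in control libraries and 197 to 273 FPKM in ND1 libraries at day 7, and that of 6 neuron markers 7.73 to 20.9 FPKM in control and 2536 to 2563 FPKM in ND1 at day 7. Sums for 6 astrocyte markers were 17.1 to 18.6 FPKM in control at day 2, 64.1 to 68.4 in control at day 7 and 24.0 to 25.5 in ND1 at day 7. Those for 6 fibroblast and mural markers were 0.383 to 1.17, 4.41 to 12.2 and 18.8 to 19.9 FPKM in the same groups. The part of other cell types in the results was not tested. FPKM sums per library differed by group. They were 679238 to 694090 in control and 600293 to 618555 in ND1 at day 2. At day 7 they were 700518 to 739846 in control and 447561 to 461085 in ND1, and neurons had 429013 to 483402. The main comparison did not adjust for these sums, and their part in the log2 changes was not tested. Quantile normalization was run as an alternative, and read depth is unknown.

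Of 91 genes with a listed start in a uniform window, 66 were in the RNA tables and 33 passed the filter of at least 1 FPKM in 3 libraries. At day 2, 12 of these 33 rose, against 9.09% of all tested genes, and 0 fell, against 0.618%; their median log2 change was 0.32, against -0.04 over all tested genes. After quantile normalization of the libraries 7 of them rose at day 2, and the share over all tested genes under it is not given here. At day 7, 18 of the 33 rose (54.5%), against 25.7%, and 6 fell (18.2%), against 24.5%, with a median of 1.31 against 0.04. For step windows 33 genes of 105 were tested as well; 3 rose and 1 fell at day 2, and 6 rose and 13 fell at day 7, with a median of -0.26. Some genes passed the filter only through the group in which they were high, so these shares describe the tested genes and not all 91. The labels do not say that the replicates were separate cultures, so the p-values measure the spread between these libraries, which may be technical.

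The genes with the largest RNA rises are given with their start windows. Nnat, which encodes neuronatin, a membrane protein of developing brain, was at 9.32, 8.69 and 13 FPKM in control and at 743, 730 and 729 FPKM in ND1 libraries at day 7. The groups did not overlap, and neurons gave 705, 826 and 852 FPKM. The log2 change was 6.04 (SE 0.12, limma adjusted p = 2.53e-15), and the start window, chr2:157560000-157560999, was at 0.493 in control and 0.499 in ND1 over 45 positions. The adjacent uniform window, described above among the largest falls, and the 250 printed bases before the Nnat start were lower in ND1 (0.595 and 0.469, and 0.769 and 0.702). Celf5, a gene of a neuronal splicing regulator, was at 0.282, 0.253 and 0.575 FPKM in control and at 50.3, 49.4 and 50.1 in ND1 at day 7 (log2 change 5.22, SE 0.09, limma adjusted p = 1.07e-15), and its window at 0.506 and 0.501. Prkcz, an atypical protein kinase C gene, was at 0.518, 0.594 and 0.601 FPKM in control and at 35.9, 36.0 and 36.5 in ND1 (log2 change 4.56, SE 0.06, limma adjusted p = 1.89e-16), and its window was the one that rose by 0.102.

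Other neuronal and imprinted genes with a start in a uniform window rose as well at day 7. Among the imprinted ones 6 rose, Commd1 fell (-1.04), and Gnas (-0.16), Airn (-0.39) and Zrsr1 (0.45) were not called. Cend1, a gene of neuronal cell cycle exit, rose by log2 4.07, Cntn1, the contactin gene, by 4.0, and Nfasc, the neurofascin gene, by 3.38; their windows differed by 0.0254, -0.0119 and 0.00109. Nos1, the neuronal nitric oxide synthase gene, rose by 3.18 and its window by 0.0485, from 0.592 to 0.641. Meg3 was at 0.743, 0.818 and 1.01 FPKM in control and at 21.3, 22.1 and 22.1 in ND1 at day 7 (log2 change 3.62, SE 0.10, limma adjusted p = 1.18e-13), below the 67.2 to 86.4 FPKM of neurons, and its window fell by 0.0302. Mest, a hydrolase-like enzyme gene, was at 1.92, 1.73 and 2.54 FPKM in control and at 15.5, 15.8 and 16.5 in ND1 (log2 change 2.47, SE 0.08, limma adjusted p = 5.06e-13), above the 10.8 to 11.7 of neurons, with a window difference of 0.00115. Usp29, a ubiquitin protease gene, and Peg3, a zinc finger gene, share a start window (0.482 and 0.461) and rose by 2.60 and 2.25.

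The remaining genes that rose at day 7 were Anks1b, a postsynaptic scaffold gene (2.92), Rhbdl1, a rhomboid-like gene (2.60), Rap1gap, a Rap GTPase-activating protein gene (2.58), Rusc1 (2.36), Hspb3, a small heat shock protein gene (2.12), Ptprr, a tyrosine phosphatase gene (1.31), and the retrogene Mcts2 (1.16). Among the 18 genes that rose, 7 start windows were lower and 11 higher in ND1, from -0.0302 to 0.102. Of the 6 that fell, Zbtb7b, a zinc finger transcription factor gene, went from 38.8, 44.3 and 41.6 FPKM to 2.97, 2.22 and 2.30 (log2 change -3.61, SE 0.07, limma adjusted p = 2.85e-15). Plekhn1 changed by -2.25, Sh3bp2, an adaptor gene of immune signalling, by -2.13, Fam134b, an endoplasmic reticulum autophagy receptor gene, by -1.74, Bmf, a BH3-only gene of cell death, by -1.70, and Commd1, a copper-handling gene, by -1.04. The calls of Commd1 (-0.997) and Mcts2 (0.959) were lost without the first and the second control library of day 7, and after quantile normalization those of Commd1 (-0.81), Ptprr (0.90) and, among the imprinted genes below, Peg10 (0.66). The start windows of the 6 genes that fell differed by -0.0226 to 0.0598, 1 lower and 5 higher.

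**Figure D4:**
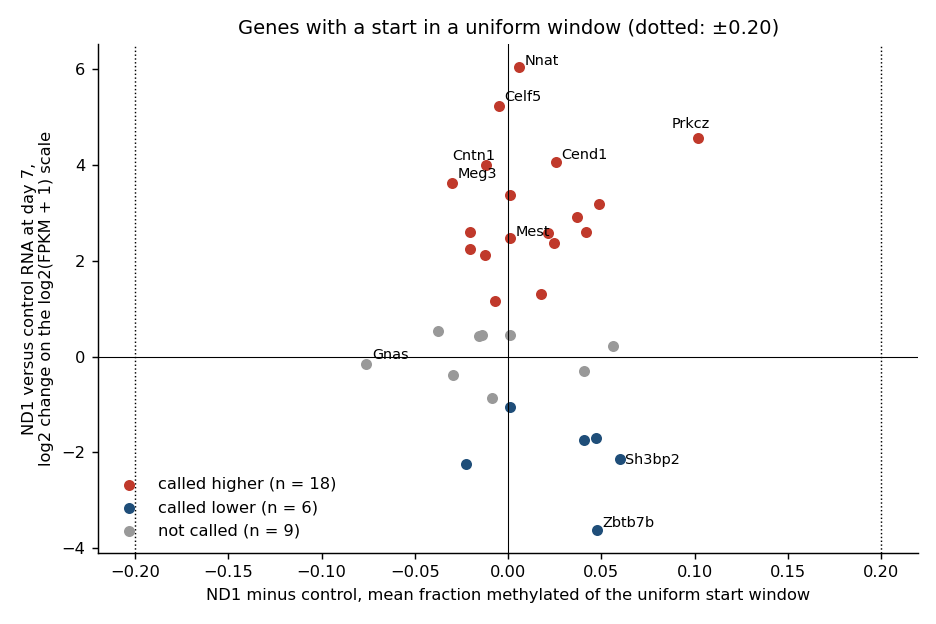
ND1 versus control RNA at day 7 (log2 change, vertical axis) against the ND1 minus control methylation difference of the start window (horizontal axis, mean where a gene has starts in 2 uniform windows), for the 33 tested genes with a start in a uniform window. RNA changes run from -3.61 to 6.04, while the plotted differences lie between -0.0761 and 0.102. The lowest is the mean of the Gnas start windows, which by themselves differed by -0.00646 and -0.146.

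Several of these genes have other starts. Of the 33 tested genes, 17 had a further listed start outside uniform windows, and for 12 such a start lay in a CpG-dense window with a control mean under 0.10. Among the 18 that rose these were 7, including Celf5, Prkcz, Cntn1 and Anks1b, and among the 6 that fell 4, including Zbtb7b. For 8 of the genes that rose, Nnat, Cend1, Nos1, Usp29, Peg3, Rhbdl1, Hspb3 and Mcts2, every listed start was in a uniform window. Gene-level FPKM does not say which start was used.

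Among tested imprinted genes near uniform windows, more rose than fell. Of the 30 listed, 25 passed the same filter, so the shares describe these 25 and not all 30. Those with a start in a uniform window, such as Nnat, Meg3 and Mest, were also counted among the start genes above. At day 2, 7 rose and 0 fell, against 9.09% and 0.618% of all tested genes, and at day 7, 14 rose and 2 fell, against 25.7% and 24.5%. The median log2 change of the 25 was 0.32 at day 2 and 1.16 at day 7. Rian, a noncoding RNA gene, was at 0.801, 0.865 and 1.13 FPKM in control and at 81.7, 88.1 and 82.1 in ND1 at day 7 (log2 change 5.46, SE 0.10). Snrpn, a splicing protein gene, was at 5.0, 5.34 and 5.83 and at 149, 151 and 151 (log2 change 4.57, SE 0.09), Peg13 rose by 2.99, Inpp5f, a phosphoinositide phosphatase gene, by 2.78, Snurf by 2.55, Zdbf2 by 1.61, Grb10 by 1.49 and Peg10 by 1.06. Igf2r, the receptor gene that clears IGF2, went from 20.9, 26.3 and 25.1 FPKM to 5.55, 5.16 and 5.09 (log2 change -1.99, SE 0.08). Gnas RNA was at 906, 886 and 842 FPKM in control and at 812, 764 and 782 in ND1 and was not called (log2 change -0.16, SE 0.05), while all 10 of its windows were lower in ND1. Not called either were Sgce (-0.99), Airn (-0.39), Trappc9 (0.20), Copg2 (0.18), H19 (0.23), H13 (0.35), Zrsr1 (0.45) and Blcap (0.95). Snrpn and Snurf, Peg3 and Usp29, Airn and Igf2r, and the genes nested in Blcap, H13, Commd1 and Trappc9 overlap or share starts, and the strand of the libraries is not given in the sources used here, so their values may be split between partners.

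**Figure D5:**
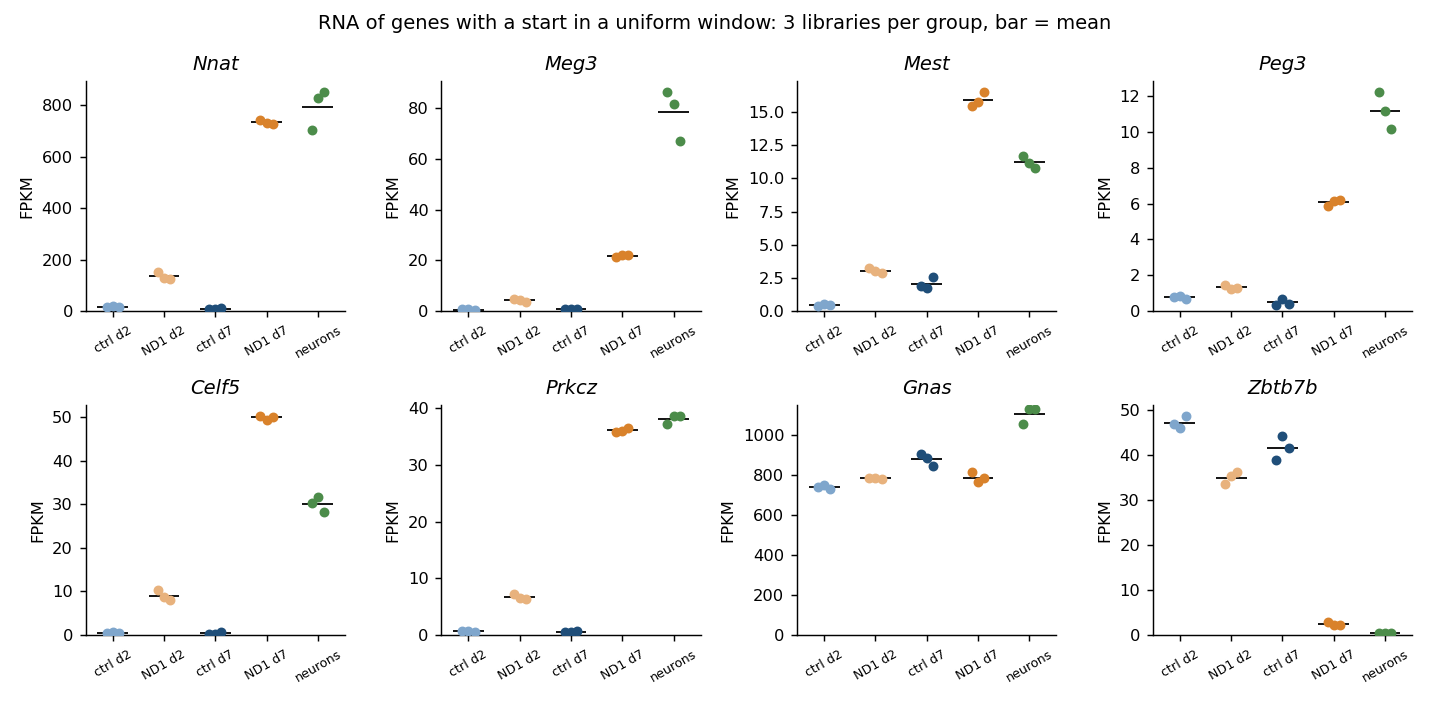
FPKM in each library for 8 genes with a start in a uniform window, 3 points per group with a bar at the mean (d2 and d7 are day 2 and day 7). Nnat, Meg3, Mest, Peg3, Celf5 and Prkcz are highest in ND1 day 7 and neuron libraries, Zbtb7b is highest in control libraries, and Gnas stays between 728 and 1130 FPKM in all 15 libraries.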

How the data were processed

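The deposited bisulfite values are methylated fractions per CpG position (0 to 1), with mm10 coordinates per the submitters' processing notes; no source used here names the aligner, caller or coverage minimum, and read depth is unknown. The deposited RNA values are FPKM; the submitters' processing notes name TopHat, Bowtie2, Cufflinks and Cuffdiff, without versions. The 14695943 autosomal positions listed in both libraries (95.8% of control's and 93.2% of ND1's) were averaged in windows of 1000 bases. RNA was tested with limma 3.58.1 in R 4.3.3 on log2(FPKM + 1), 5 groups of 3 libraries in 1 fit, for genes with at least 1 FPKM in 3 libraries and Benjamini-Hochberg adjustment over 13602 genes; this scale understates changes of low genes. Windows were named by size of difference, number of positions, contrast or nearness to imprinted genes, and genes by their day 7 call or a uniform window within 10 kb of a listed imprinted gene. The windows, gene lists and rules were chosen with earlier results of these data known. Alternatives covered window, band and class limits, the choosing library, the RNA scale and filter, and left-out replicates. The ChIP samples were not analysed here.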

Additional observations from a re-analysis of the deposited data

Results flagged for a closer look

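The effect of ND1 on RNA differed between day 2 and day 7 for 30 of the 42 named genes, by the test of the difference itself in limma (adjusted p of at most 1.19e-06, SE 0.0490 to 0.165), with a difference of at least 1 on the log2 scale. For 24 genes the ND1 effect was higher at day 7 than at day 2. The differences, day 7 minus day 2, among genes with a start in a uniform window or near one were Nnat (3.19), Celf5 (2.51), Prkcz (2.32), Rian (2.23), Cntn1 (2.09), Snrpn (1.99), Meg3 (1.93), Anks1b (1.89), Nos1 (1.88), Snurf (1.87), Peg3 (1.85) and Nfasc (1.74). They were smaller for Usp29 (1.68), Inpp5f (1.63), Cend1 (1.59), Rhbdl1 (1.58), Hspb3 (1.55), Rusc1 (1.52), Rap1gap (1.44), Grb10 (1.43), Peg13 (1.26), Zdbf2 (1.2), Ptprr (1.02) and Mest (1.01). For 6 genes the effect was lower at day 7, namely Zbtb7b (-3.19), Igf2r (-2.10), Bmf (-1.73), Plekhn1 (-1.71), Sh3bp2 (-1.69) and Fam134b (-1.46). The other 12 named genes, among them Gnas, H19 and Airn, did not pass. The named genes were chosen largely by their day 7 call, which favours a larger effect at day 7, so the count is a description; over all 13602 tested genes 20.5% had a higher and 20.8% a lower effect at day 7 by the same limits. Each day was compared with its own controls, and no methylation library carries a day.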

How the results depend on the processing

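The number of windows moved with the limits that define them. With at least 30 positions there were 745 windows and 289 uniform ones, with at least 15 positions 12472 and 3907, with a control band of 0.45 to 0.55 2205 and 648, and with 0.35 to 0.65 6956 and 2116. With the band applied to the median there were 2919 windows. The median difference of uniform windows was -0.00102 with 30 positions, 0.00814 with 15, -0.000929 when the ND1 library chose the windows and -0.000468 when odd-numbered positions chose and even-numbered ones measured, so its sign is not settled. No uniform or step window was lower by 0.20 under any of these alternatives, and 0.456% of uniform windows were at the limit of 0.10. For RNA, quantile normalization gave 7 genes called higher at day 2. It moved the median log2 change over all tested genes from -0.0398 to -0.102, and the share of all genes called under it is not given here. With starts within 1 kb, 11 of 55 tested genes were called lower at day 7 (20%), against 6 of 33 (18.2%). Called higher were 27 of the 55 (49.1%), against 18 of 33 (54.5%). Leaving out 1 library gave 10 to 12 higher and 0 to 0 lower at day 2, and 17 to 18 higher and 5 to 6 lower at day 7. Of 995 values of named genes under alternatives, 971 kept their call or lack of one, 14 lost the call and 10 gained it. A change of sign was counted only where the gene was called in the main fit or the alternative, and 0 of those reversed. Commd1 was not called at day 7 without the first control library, nor Mcts2 without the second.

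The labels do not say that replicate numbers pair the samples, and the values gave little sign of pairing. Of 30 pairs of same-numbered libraries 2 correlated above 0.1 (-0.226 to 0.161), and 2 of 15 libraries correlated best with their own number. With 3 libraries a group these correlations cannot exclude a weak shared effect. With a replicate block 12 genes were called higher and 0 lower at day 2, and 18 higher and 6 lower at day 7. The methylation differences rest on 1 library a group with unknown depth.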

Other observations

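Chromosome X was left out of the windows and had another distribution. Of its 1183 CpG-dense windows 49 (4.14%) lay between 0.40 and 0.60 in control, and 295 (24.9%) lay from 0.2 to under 0.4, against 7.2% of autosomal windows. Its windows with a gene start numbered 401, with medians of 0.173 in control and 0.165 in ND1, against 0.0315 and 0.0321 for 12409 autosomal ones. Windows under 0.10 made up 5.16% on chromosome X and 28.5% on autosomes.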
